A study of Mus musculus with 48 samples.

Results

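The genes described here are the 4 receptors of the opioid and nociceptin family of the mouse, Oprm1, Oprd1, Oprk1 and Oprl1, which code for the mu, delta, kappa and nociceptin receptors. They were taken by gene name from the 54838 genes in each of 48 libraries, with no threshold on a measured value. Messenger RNA bound to tagged ribosomes was counted in 2 kinds of medium spiny neuron of the nucleus accumbens, the ventral part of the striatum with roles in reward, in a study of abstinence from the mu agonist fentanyl. All 4 genes passed the filter on low counts in every fit.

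All 4 receptors are coupled to inhibitory G proteins of the Gi and Go classes. When activated they lower adenylyl cyclase activity, open inwardly rectifying potassium channels and close presynaptic calcium channels, which together dampen firing and transmitter release. Mu and delta receptors respond to enkephalins, which striatal neurons with dopamine D2 receptors make in quantity, and kappa receptors to dynorphins, which neurons with dopamine D1 receptors make. The nociceptin receptor is close to the others in sequence but has its own peptide and binds classical opioids poorly.

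D1 libraries came from Drd1Cre x Rpl22HA mice, in which Cre is driven by the dopamine D1 receptor gene. D2 libraries came from A2ACre x Rpl22HA mice, in which Cre is driven by Adora2a, an adenosine receptor gene of the neurons with D2 receptors. In both lines Cre turns on a haemagglutinin-tagged form of the ribosomal protein Rpl22 in every cell that has used the driver, so that ribosomes of such cells can be pulled down (RiboTag). Per cell type there were libraries from females and from males in fentanyl abstinence, taken on day 10, and from females and from males of a water abstinence group. Each of these 8 groups held 6 libraries. Each library pooled 4 mice with 4 punches of 14 gauge per mouse, and 10 ng of its RNA went into a Smart-Seq v4 library. All groups share the tagged Rpl22 allele, no group lacks Cre, and ages were not given in the sources used here. The p-values below speak of the spread between pools, not between single mice.

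Libraries held 27153238 ± 2712615 reads in genes in D1 and 32690424 ± 3511626 in D2 (SD, n = 24 each), and 20211543 to 42584762 over all of them. Per library this gave 78 to 175 reads of Oprm1 in D1 and 47 to 147 in D2, and 105 to 320 reads of Oprd1 in D1 and 205 to 588 in D2. Oprk1 had 1284 to 2459 reads in D1 and 1007 to 2082 in D2, and Oprl1 609 to 1166 in D1 and 601 to 1173 in D2. The biological coefficient of variation that edgeR estimated over all libraries was 21.7% for Oprm1, 18.6% for Oprd1, 11.7% for Oprk1 and 9.3% for Oprl1. The pull-downs carried their labelled cell types: by edgeR (adjusted p under 0.05), D1 water libraries were above D2 water libraries in all 10 D1 neuron markers and below them in all 8 tested D2 neuron markers. Levels are in CPM, read counts divided by library size, with TMM factors over all 48 libraries.

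The receptors are similar enough in sequence that reads could in principle be shared between them, so their transcripts were compared first. In pairs, their coding sequences were between 63.7% (Oprk1 and Oprl1) and 71.7% (Oprm1 and Oprd1) identical. The longest identical stretch of any pair was 25 bases, again of Oprk1 and Oprl1, and no stretch of 50 bases was shared between any of the 4 genes. One stretch of 17 bases was identical in all 4. It lies in the part that codes for the third transmembrane helix, and its first codon is that of the aspartate that contacts the charged amine of opioid ligands. It is shown in capitals with 20 bases on either side, because it is the longest stretch that joins the family and shows how quickly identity is lost around it:
Oprm1: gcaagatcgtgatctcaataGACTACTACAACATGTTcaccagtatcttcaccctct
Oprd1: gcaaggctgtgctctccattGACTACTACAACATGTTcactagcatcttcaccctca
Oprk1: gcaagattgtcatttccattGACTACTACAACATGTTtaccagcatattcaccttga
Oprl1: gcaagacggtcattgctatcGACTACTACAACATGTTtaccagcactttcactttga
Of these 57 bases, Oprd1 shared 48 with Oprm1, Oprk1 shared 46 and Oprl1 shared 42. On GRCm38 with the GENCODE M21 models, the Oprm1 window is at chr10:6829019-6829075 on the plus strand, in exon 2 of the 4 exons of the model used. The Oprd1 window is at chr4:132117278-132117334 on the minus strand, in exon 2 of 3. The Oprk1 window is at chr1:5598724-5598780 on the plus strand, in exon 3 of 4, and the Oprl1 window at chr2:181718511-181718567 on the plus strand, in exon 3 of 4.

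The gene models differ widely in size. Oprm1 (ENSMUSG00000000766) spans chr10:6758506-7038198 on the plus strand with 31 transcripts, while Oprd1 (ENSMUSG00000050511) spans chr4:132110726-132144486 on the minus strand with 1. Oprk1 (ENSMUSG00000025905), at chr1:5588466-5606131, has 5 transcripts, and Oprl1 (ENSMUSG00000027584), at chr2:181715016-181720985, has 11, both on the plus strand. Of the stretches of 50 bases in their transcripts, Oprm1 shared 52 of 8927 with another gene, Ipcef1, whose exons overlap 1.19% of its own exonic bases. Oprk1 shared 10 of 9189, a repeat found in 522 genes, and Oprd1 and Oprl1 shared 0 of 3972 and 0 of 4022.

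The first comparison asked in which neuron type each receptor was higher. Oprm1, Oprk1 and Oprl1 were higher and Oprd1 was lower in D1 than in D2 libraries, in fentanyl abstinence as in the water groups. Of all 18270 genes tested, edgeR called 53.9% in fentanyl abstinence (26.8% higher and 27.1% lower in D1) and 53.3% in water (26.8% higher and 26.5% lower), so that a call as such is common here. The 4 receptors passed in both treatments.

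Oprm1, the mu receptor and the target of fentanyl, had in fentanyl abstinence 3.00 CPM in the lowest, 4.58 in the median and 6.03 in the highest D1 library, against 1.36, 2.08 and 3.20 CPM in D2 libraries. In water the values were 2.71, 4.30 and 6.08 CPM in D1, against 1.68, 2.21 and 3.40 CPM in D2 (n = 12 per group). The groups overlapped by few libraries. In fentanyl abstinence 2 D2 libraries lay above the lowest D1 library, and 1 D1 library lay below the highest D2 library. In water 1 D2 library, a male pool, lay above the lowest D1 library, and 3 D1 libraries lay below that pool. The log2 difference was 1.10 in fentanyl abstinence (SE 0.138, 95% interval 0.82 to 1.37, edgeR adjusted p = 2.53e-09) and 0.95 in water (SE 0.139, 0.67 to 1.23, adjusted p = 8.28e-08). In water, 95.9% of all genes tested had a lower log2 difference than Oprm1.

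Oprd1, the delta receptor, was the one member that was lower in D1. In fentanyl abstinence it ran from 4.75 through a median of 6.90 to 11.7 CPM in D1 libraries, against 7.55, 11.3 and 14.2 CPM in D2. In water it ran from 4.60 through 7.23 to 8.74 CPM in D1, against 7.35, 11.6 and 13.6 CPM in D2. The groups overlapped in both treatments. In fentanyl abstinence 5 of 12 D1 libraries lay above the lowest D2 library and 7 of 12 D2 libraries below the highest D1 library, and in water 5 D1 libraries lay above the lowest D2 library and 1 D2 library below the highest D1 library. The log2 difference was −0.63 in fentanyl abstinence (SE 0.112, −0.86 to −0.41, edgeR adjusted p = 4.25e-06) and −0.71 in water (SE 0.113, −0.93 to −0.48, adjusted p = 5.51e-07).

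Oprk1, the kappa receptor, showed no overlap between the cell types in either treatment. D1 libraries in fentanyl abstinence had 56.3, 68.7 and 87.7 CPM as lowest, median and highest value, against 34.9, 38.4 and 47.9 CPM in D2. In water they had 54.3, 63.8 and 84.0 CPM, against 35.2, 40.5 and 49.6 CPM in D2. The log2 difference was 0.82 in fentanyl abstinence (SE 0.0678, 0.68 to 0.95, edgeR adjusted p = 1.05e-14) and 0.66 in water (SE 0.0677, 0.53 to 0.80, adjusted p = 8.01e-12). Groups without overlap made up 12.2% of all genes tested in fentanyl abstinence and 12.8% in water.

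Oprl1, the nociceptin receptor, had the lowest biological coefficient of variation of the 4 over all libraries and in D1 (8.6%), while in D2 Oprk1 was lower (10.4%, against 10.9% for Oprl1). In fentanyl abstinence it ran from 31.2 through 36.7 to 41.5 CPM in D1 libraries, against 22.6, 24.5 and 32.0 CPM in D2. In water it ran from 30.7 through 36.0 to 38.1 CPM in D1, against 20.1, 23.8 and 29.4 CPM in D2. The groups did not overlap in water, and overlapped in fentanyl abstinence by 1 library of each cell type, the lowest D1 and the highest D2 pool of females, each of which lay far from the rest of its own group. The log2 difference was 0.53 in both treatments (in fentanyl abstinence SE 0.0541, 0.42 to 0.64, edgeR adjusted p = 6.76e-12; in water SE 0.0543, 0.42 to 0.64, adjusted p = 8.2e-12).

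**Figure D1:**
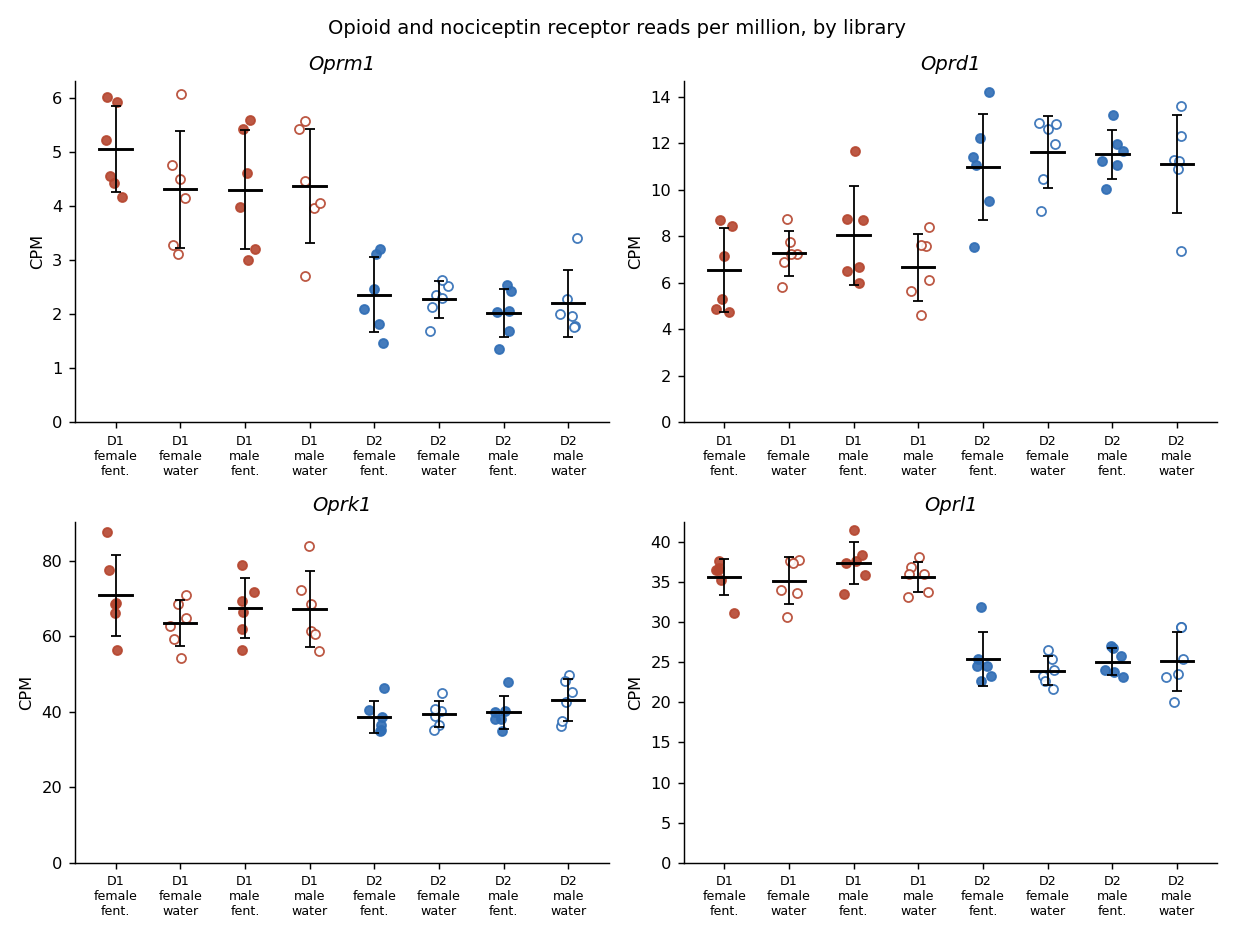
CPM of each receptor in every library, by cell type, sex and treatment, with filled points for fentanyl abstinence, open points for water, and the mean and SD of 6 libraries. D1 points lie above D2 points for Oprk1 in both treatments (54.3 CPM or more in every D1 library against 49.6 or less in every D2 library), and the order is the other way for Oprd1, with overlap.

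Within each sex the direction was the same for all 4 genes. Oprk1 did not overlap between D1 and D2 libraries in females or in males, in fentanyl abstinence or in water. Oprm1 did not overlap in females, with 4.16 CPM or more in D1 against 3.20 or less in D2 in fentanyl abstinence, and 3.11 or more in D1 against 2.63 or less in D2 in water. In males Oprm1 overlapped in water alone. Separation of 6 from 6 libraries was common: of all genes tested, 18.8% did not overlap in females and 24.8% in males in fentanyl abstinence, and 25.6% in females and 19.5% in males in water. The ratio of the receptors within a library was also taken, as a description. The level per kilobase of exon of Oprk1 was 4.56 ± 1.69 times that of Oprd1 in D1 and 1.56 ± 0.243 times in D2 libraries in fentanyl abstinence, and 4.29 ± 1.14 times in D1 and 1.62 ± 0.257 times in D2 in water (SD, n = 12 each). The lowest ratio of any D1 library, 2.50, lay above the highest of any D2 library, 2.16. The ratio itself depends on the length: over coding length it was 10.2 ± 3.77 in D1 and 3.47 ± 0.540 in D2 in fentanyl abstinence, and 9.55 ± 2.55 in D1 and 3.62 ± 0.573 in D2 in water. Oprk1 was higher and Oprd1 lower in D1, so their ratio joins both differences. Per kilobase of exon, the other ratios taken overlapped between the cell types in fentanyl abstinence. Oprk1 over Oprm1 ran from 9.45 to 18.2 in D1 and from 9.67 to 27.9 in D2. Oprm1 over Oprd1 ran from 0.138 to 0.634 in D1 and from 0.0512 to 0.163 in D2, and did not overlap in water.

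In these bulk pull-downs, fewer cells with a receptor and less RNA per cell cannot be told apart. RNA of other cells also differed between D1 and D2 libraries, the same division as in the results above. In fentanyl abstinence the summed vascular markers of D1 libraries lay between 17.4 and 30.9 CPM and those of D2 libraries between 314 and 597. In water they lay between 17.7 and 35.9 CPM for D1 and between 317 and 533 for D2 libraries. In water all 12 vascular and all 12 oligodendrocyte markers, 10 of 12 astrocyte markers and 8 of 9 tested microglial markers were lower in D1, and no gene of the cell type marker lists was at 0 in every library of a water group. In fentanyl abstinence the microglial gene Trem2 was at 0 in all D1 libraries. Markers of other neurons were higher in D1: all 8 of cholinergic interneurons (13.2 to 29.6 CPM summed in D1 and 3.43 to 7.74 in D2 in fentanyl abstinence, 12.6 to 35.3 in D1 and 3.23 to 5.50 in D2 in water), 9 of 11 of GABA interneurons and all 8 of excitatory pallial neurons. The GABA interneuron markers summed to 983 to 1877 CPM in D1 and 327 to 703 in D2 in fentanyl abstinence, and to 892 to 1959 CPM in D1 and 347 to 659 in D2 in water. The pallial markers summed to 392 to 778 CPM in D1 and 105 to 637 in D2 in fentanyl abstinence, and to 449 to 895 CPM in D1 and 137 to 366 in D2 in water. Their part in the receptor differences was not tested.

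When libraries were scaled to genes shared by both types of medium spiny neuron in place of all genes, the median of all genes moved by 0.34 in fentanyl abstinence and by 0.33 in water (log2). Of the genes called under this scaling, 10520 of 12203 were higher in D1 in fentanyl abstinence and 10384 of 12096 in water, against 4900 of 9854 in fentanyl abstinence and 4891 of 9733 in water with the scaling to all genes. Under this scaling Oprd1 was still lower in D1, by a log2 difference of −0.29 in fentanyl abstinence (edgeR adjusted p = 0.0145) and −0.37 in water (adjusted p = 0.00207), while the differences of Oprm1, Oprk1 and Oprl1 became 1.43, 1.16 and 0.86 in fentanyl abstinence and 1.30, 0.99 and 0.86 in water. Relative to the median of all genes, the log2 difference of Oprd1 was −0.62 in fentanyl abstinence and −0.70 in water by either scaling, and that of Oprl1 in water 0.54 by either. A change of scaling shifts nearly all genes alike, so this match is built in and is no check of the differences.

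**Figure D2:**
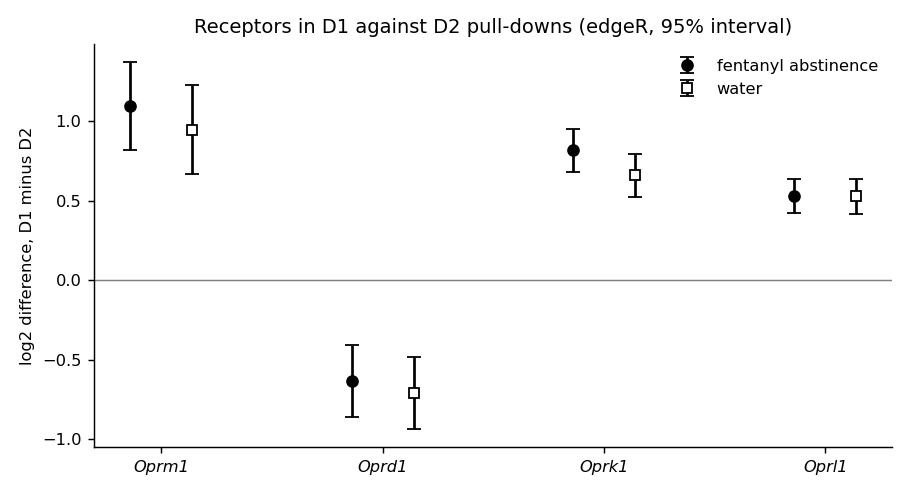
Log2 difference of D1 over D2 for each receptor, with 95% intervals, in fentanyl abstinence (filled circles) and in water (open squares). Oprm1, Oprk1 and Oprl1 lie above 0 and Oprd1 below it in both treatments.

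The difference between D1 and D2 was itself compared between treatments. The log2 difference of D1 over D2 in fentanyl abstinence, minus that in water, was 0.15 for Oprm1 (95% interval −0.24 to 0.54), 0.073 for Oprd1 (−0.25 to 0.39), which was the less negative in fentanyl abstinence, 0.16 for Oprk1 (−0.036 to 0.35, unadjusted p = 0.109) and 0.0028 for Oprl1 (−0.15 to 0.16). No receptor passed, with adjusted p of 1.00 by edgeR, and neither did any other gene (0% of 18270). At an unadjusted p under 0.05 edgeR had 806 genes (4.41%) and none of the receptors. By adjusted p under 0.05, DESeq2 called 6 genes and limma voom 0.

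Levels of different genes can be compared only per length, and the order of the receptors depended on which length was used. Per kilobase of all exons, Oprl1 stood highest in D1 water libraries at 9.44 ± 0.623 CPM per kilobase, then Oprk1 at 7.14 ± 0.896, Oprd1 at 1.73 ± 0.302 and Oprm1 at 0.540 ± 0.127 (SD, n = 12). In D2 water libraries the levels were 6.54 ± 0.755 for Oprl1, 4.51 ± 0.529 for Oprk1, 2.83 ± 0.443 for Oprd1 and 0.278 ± 0.0595 for Oprm1. This order held in 24 of 24 D1 and 23 of 24 D2 libraries over both treatments.

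Per kilobase of the longest transcript or of coding sequence, Oprk1 came before Oprl1. Over the longest transcript, D1 water libraries had 14.0 ± 1.75 CPM per kilobase of Oprk1 and 11.4 ± 0.754 of Oprl1, and Oprk1 was first in 23 of 24 D1 and 16 of 24 D2 libraries. Over coding sequence, Oprk1 was first in all 24 D1 and all 24 D2 libraries. Oprd1 and Oprm1 could not be placed in D1 over the longest transcript, with Oprm1 above Oprd1 in 11 of 24 libraries, whereas Oprd1 was the higher in all 24 D2 libraries by each length. By each of the 3 lengths, both Oprk1 and Oprl1 lay above both Oprd1 and Oprm1 in every library.

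**Figure D3:**
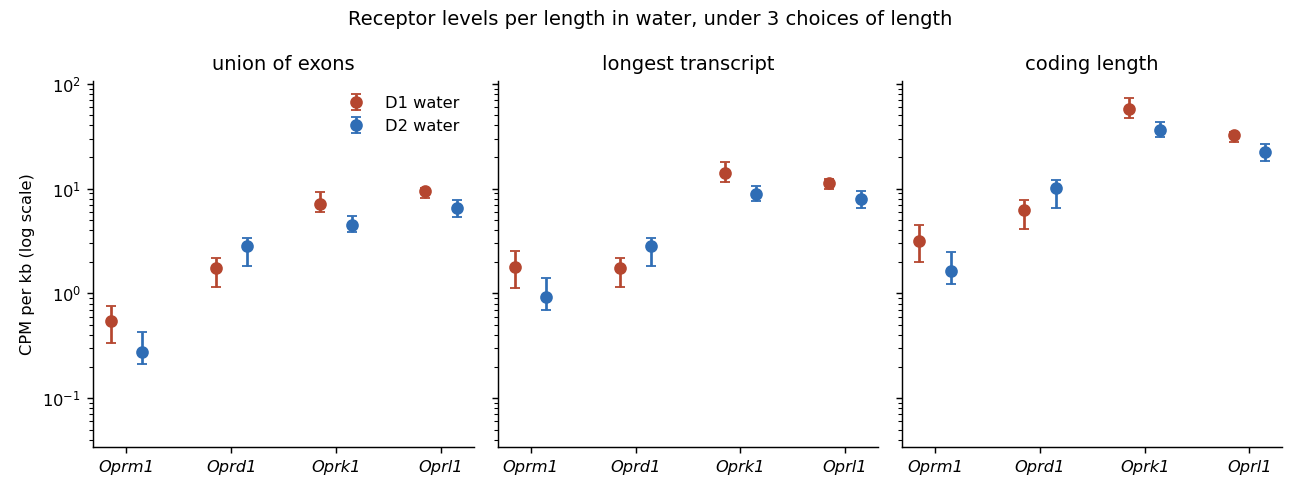
Level of each receptor in D1 and D2 water libraries, in CPM per kilobase on a log axis, over all exons, the longest transcript and coding sequence, with dots for the mean and bars from the lowest to the highest of 12 libraries. Oprk1 and Oprl1 change places with the length used, and both stay above Oprd1 and Oprm1.

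Of the summed level of the family per kilobase of all exons, Oprd1 took 9.28 ± 2.74% for D1 and 19.9 ± 2.80% for D2 in fentanyl abstinence, and 9.22 ± 1.79% for D1 and 19.9 ± 2.50% for D2 in water (SD, n = 12 each). Oprm1 took 2.97 ± 0.648% for D1 and 1.94 ± 0.571% for D2 in fentanyl abstinence, and 2.87 ± 0.708% for D1 and 1.97 ± 0.405% for D2 in water. Set against 14380 coding genes in water, 68.5% in D1 and 61.5% in D2 had a lower level per kilobase than Oprl1. For Oprk1 the shares were 62.4% in D1 and 53.5% in D2, for Oprd1 35.8% in D1 and 44.6% in D2, and for Oprm1 21.9% in D1 and 13.1% in D2. All shares in this paragraph use the length of all exons and were not taken over other lengths. Over the longest transcript the level of Oprm1 in D1 water was 1.79 in place of 0.540, while Oprd1 stayed at 1.73.

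Among 27 peptide receptors of related families, the 4 opioid receptors took places from 4 to 20 per kilobase of all exons, the only length used for this order. Mchr1, the receptor of melanin-concentrating hormone, was first in both neuron types, with 47.7 ± 7.55 CPM per kilobase of exon in D1 and 71.3 ± 8.02 in D2 water libraries (SD, n = 12 each). Oprl1 was in place 4 in both, behind Sstr2 and Cckbr in D1 and behind Ntsr2 and Cckbr in D2. Oprk1 was in place 5 in D1 and 6 in D2, Oprd1 in place 14 in D1 and 9 in D2, and Oprm1 in place 20 in both. Neighbours in the order were often within their spread: in D1 Oprk1 (7.14 ± 0.896) and the neuropeptide Y receptor gene Npy1r (7.01 ± 0.965) did not differ beyond it, nor in D2 Oprk1 (4.51 ± 0.529) and the corticotropin-releasing hormone receptor gene Crhr1 (4.15 ± 0.565). Of the other 23 receptors, 21 were tested for D1 against D2 in water. Among these, 14 were higher and 3 lower in D1, beside 26.8% higher and 26.5% lower of all genes tested. The median log2 difference of the 21 was 0.78, against −0.010 over all genes.

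**Figure D4:**
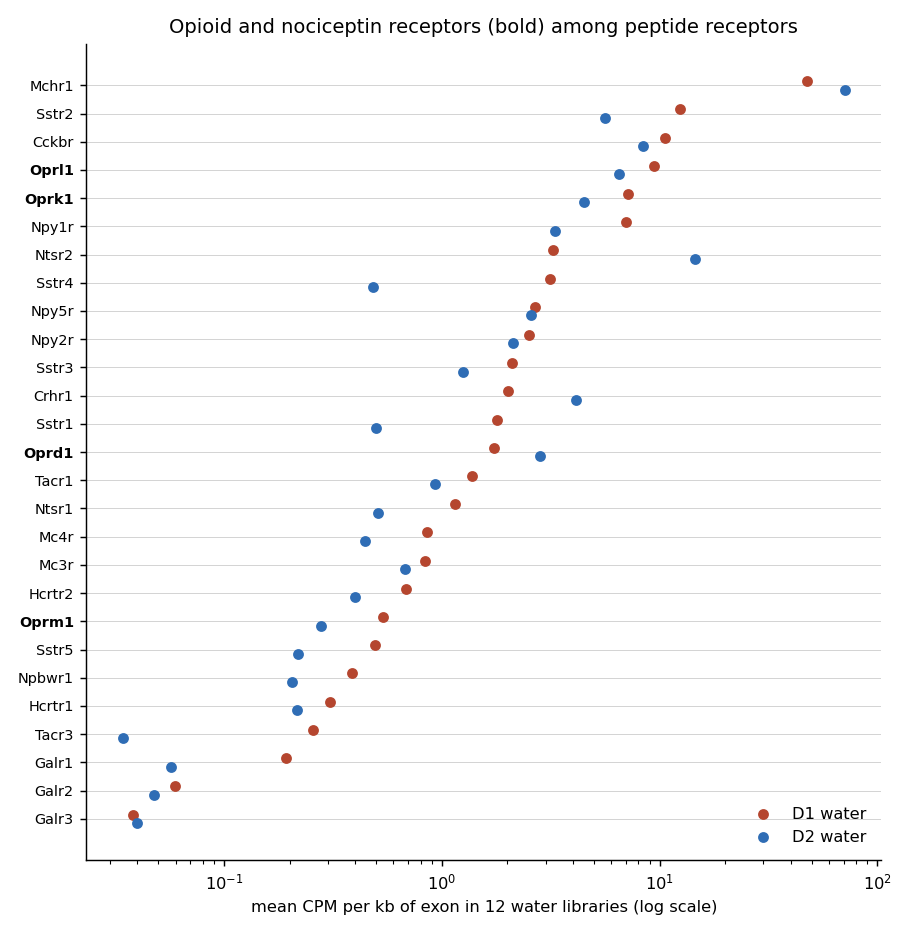
Levels of 27 peptide receptor genes in D1 and D2 water libraries, in CPM per kilobase of all exons. Oprl1 and Oprk1 are in the upper part of the order in both neuron types, and Oprm1 is in place 20 in both.

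The comparison of fentanyl abstinence with water asked whether the receptors changed within a neuron type. None of the 4 passed in D1 or in D2, and the values of the treatments overlapped for each of them. Over the whole table edgeR called 0% of 16782 genes in D1 and 0% of 17706 in D2. At an unadjusted p under 0.05 edgeR had 632 genes in D1 (3.77%) and 747 in D2 (4.22%), with no receptor among them. By adjusted p under 0.05, DESeq2 called 2 genes in D1 and 0 in D2, and limma voom 0 in both.

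In D1, Oprm1 averaged 4.68 ± 0.994 CPM in fentanyl abstinence and 4.34 ± 1.02 in water (SD, n = 12 each), a log2 difference of 0.11 (95% interval −0.15 to 0.38). Oprd1 averaged 7.29 ± 2.04 CPM in fentanyl abstinence and 6.97 ± 1.21 in water (0.061, −0.20 to 0.33). Oprk1 averaged 69.2 ± 9.13 CPM in fentanyl abstinence and 65.3 ± 8.20 in water (0.085, −0.059 to 0.23). For Oprl1 the means were 36.5 ± 2.54 CPM in fentanyl abstinence and 35.4 ± 2.34 in water (0.046, −0.050 to 0.14). Each adjusted p was 1.00 by edgeR. The upper bounds stand for a fold of at most 1.30 for Oprm1 and 1.10 for Oprl1 in D1, so larger rises lie outside the intervals.

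In D2, Oprm1 averaged 2.19 ± 0.586 CPM in fentanyl abstinence and 2.23 ± 0.478 in water (log2 difference −0.038, −0.32 to 0.25). Oprd1 averaged 11.3 ± 1.72 CPM in fentanyl abstinence and 11.4 ± 1.78 in water (−0.018, −0.20 to 0.17). Oprk1 averaged 39.2 ± 4.16 CPM in fentanyl abstinence and 41.3 ± 4.84 in water (−0.075, −0.19 to 0.043). For Oprl1 the means were 25.3 ± 2.54 CPM in fentanyl abstinence and 24.6 ± 2.84 in water (0.039, −0.084 to 0.16). Each adjusted p was 0.999 by edgeR. With libraries left out 1 at a time, the D1 value of Oprd1 and the D2 values of Oprm1 and Oprd1 changed sign, between values that did not pass.

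The sexes were then taken apart. In D1 females Oprd1 had 4.75, 6.22 and 8.69 CPM as lowest, median and highest value in fentanyl abstinence, against 5.80, 7.23 and 8.74 CPM in water. In D1 males it had 5.98, 7.68 and 11.7 CPM in fentanyl abstinence, against 4.60, 6.86 and 8.38 CPM in water. The treatments overlapped in both sexes, with a lower median in fentanyl abstinence in females and a higher one in males.

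The log2 difference of Oprd1 was −0.15 in D1 females (−0.53 to 0.22) and 0.28 in D1 males (−0.097 to 0.65), and the response in females was lower than that in males by a log2 value of −0.43 (−0.96 to 0.098, unadjusted p = 0.106, edgeR adjusted p = 0.998). Oprm1 had 4.16, 4.89 and 6.03 CPM in D1 females in fentanyl abstinence, against 3.11, 4.32 and 6.08 CPM in water, a log2 difference of 0.24 (−0.13 to 0.61, adjusted p = 0.902). In D1 males it was −0.012 (−0.38 to 0.36). Oprk1 had a log2 difference of 0.16 in D1 females (−0.044 to 0.37) and 0.0097 in D1 males (−0.19 to 0.21), and Oprl1 0.019 in females and 0.073 in males.

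In D2 the largest of these differences was Oprm1 in males, at −0.13 (−0.54 to 0.27), followed by Oprk1 in males at −0.12 (−0.29 to 0.046). In D2 females the 4 differences lay between −0.083 and 0.083. The difference in response between females and males passed for no gene in either cell type by edgeR (0% of 16782 genes in D1, with 651 or 3.88% at an unadjusted p under 0.05, and 0% of 17706 in D2, with 1416 or 8%), and no receptor was among those with an unadjusted p under 0.05. With the scaling to shared neuron genes, Oprk1 in D2 was: its log2 difference in males was −0.23 (unadjusted p = 0.00283, edgeR adjusted p = 0.410), and the female minus male response 0.27 (unadjusted p = 0.0146, adjusted p = 0.271). That scaling moved the median of all genes to −0.13 in D2 males and to 0.20 for the female minus male response in D2. DESeq2 called 3 genes in D1 and 13 in D2 for this difference, and limma voom 0 in both. Within each sex edgeR likewise called 0% of genes, with 939 (5.6%) at an unadjusted p under 0.05 in D1 females, 454 (2.71%) in D1 males, 822 (4.64%) in D2 females and 1182 (6.68%) in D2 males, and no receptor among them. By adjusted p under 0.05, DESeq2 called 0, 4, 6 and 2 genes in these groups and limma voom 0, 2, 1 and 0.

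**Figure D5:**
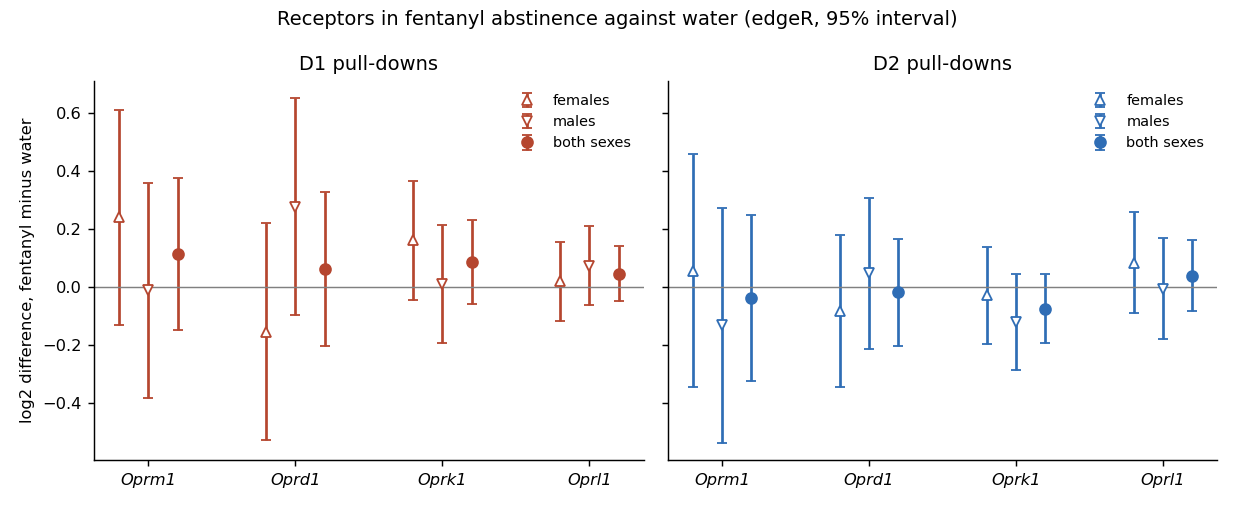
Log2 difference of fentanyl abstinence over water for each receptor in D1 and D2 libraries, with 95% intervals, over both sexes (circles) and in females and males apart (triangles). Every interval includes 0.

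Females and males of the water groups were compared to see whether the receptors differed by sex without fentanyl. In D1 the log2 difference of females over males was −0.020 for Oprm1 (−0.39 to 0.35), 0.13 for Oprd1 (−0.24 to 0.51), −0.082 for Oprk1 (−0.29 to 0.12) and −0.016 for Oprl1 (−0.15 to 0.12). In D2 it was 0.040 for Oprm1 (−0.36 to 0.44), 0.060 for Oprd1 (−0.20 to 0.32), −0.14 for Oprk1 (−0.30 to 0.030) and −0.073 for Oprl1 (−0.25 to 0.10). No receptor passed by edgeR, where 0.0477% of 16782 genes in D1 and 0.0791% of 17706 in D2 did, and none was among the 6.17% in D1 and 11.3% in D2 with an unadjusted p under 0.05. Oprk1 in D2 came nearest, with 39.4 ± 3.45 CPM in females and 43.2 ± 5.56 in males (SD, n = 6 each, unadjusted p = 0.104).

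Of the 4 peptide precursors of these receptors, Pdyn, Penk and Pnoc had larger log2 differences between the neuron types than any receptor. In water, Pdyn, the precursor of the dynorphins that act on the kappa receptor, had 632 ± 114 CPM for D1 against 37.2 ± 8.22 for D2 (log2 difference 4.09, edgeR adjusted p = 2.92e-26). Penk, the enkephalin precursor, had 2354 ± 574 CPM for D1 against 16549 ± 1725 for D2 (−2.81, adjusted p = 7.57e-24), against the log2 difference of −0.71 in Oprd1 and 0.95 in Oprm1. Pnoc, the nociceptin precursor, had 8.24 ± 2.67 CPM for D1 against 1.13 ± 0.396 for D2 (2.89, adjusted p = 3.63e-17). Pomc, the precursor of beta-endorphin, was low in both, with 2.27 ± 0.409 CPM for D1 against 3.14 ± 0.541 for D2 (−0.47, adjusted p = 0.00042), and no longer passed under the scaling to shared neuron genes (−0.13). Of 14 genes that cut, modify or break down these peptides, 6 were higher and 4 lower in D1, beside 26.8% higher and 26.5% lower of all genes tested. Among the 14, Pcsk1, a prohormone convertase, had a log2 difference of 0.83 and Pam, which amidates peptide ends, one of 0.67.

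Genes downstream of the receptors were counted in lists, again for D1 against D2 in water, beside the 26.8% of all genes that were higher and 26.5% that were lower. Of 7 genes of G protein-gated potassium channels and presynaptic calcium channels, 6 were higher and 0 lower in D1, with a median log2 difference of 0.76. Kcnj3, Kcnj6 and Kcnj9, which code for subunits of the potassium channels, had log2 differences of 1.04, 1.34 and 0.76, and Cacna1a, of P/Q-type calcium channels, 0.43. Of 8 adenylyl cyclases, 5 were higher and 0 lower in D1 (median 0.78), among them Adcy1 at 0.86, Adcy2 at 1.25, Adcy6 at 1.00 and Adcy8 at 1.32. The scaling to shared neuron genes moves all genes up in D1, so that 56.8% of them were higher and 9.37% lower. Under it all 7 channel genes and all 8 cyclases were higher in D1. Adcy5, one of these cyclases, is itself among the genes that set this scaling.

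The G proteins did not move one way. Of 5 alpha subunits of the Gi and Go classes, 3 were higher and 1 lower in D1: Gnai1 had a log2 difference of 0.88, Gnaz 0.33 and Gnao1 0.12, and Gnai2 −0.31, which turned to 0.019 under the scaling to shared neuron genes. Of 11 beta and gamma subunits, 4 were higher and 4 lower, led by Gnb4 at 1.69, Gng2 at 1.56 and Gnb5 at −0.84. Under the scaling to shared neuron genes Gnb5 still passed, at −0.51. Gnb2, another of the lower ones, went from −0.43 to −0.11 and no longer passed. Of 7 receptor kinases and arrestins, which end receptor signalling, 3 were higher and 0 lower, among them Grk3 at 1.02 and Grk2 at 0.33. The other, Grk4 at 0.34, was near the threshold (edgeR adjusted p = 0.0468) and did not pass with DESeq2 (adjusted p = 0.0688). Of 15 RGS proteins, which speed G protein inactivation, 4 were higher and 7 lower, led by Rgs12 at 0.77 and Rgs14 at −0.69. Under the scaling to shared neuron genes 8 were higher and 1 lower, beside the 56.8% and 9.37% of all genes given above. Rgs9, on the RGS list, and Gng7, on the list of beta and gamma subunits, are themselves among the genes that set this scaling.

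Of 9 tested atypical opioid binders and receptor partners, 2 were higher and 5 lower in D1, again beside 26.8% and 26.5% of all genes. Gpr139 was at 2.25 (2.77 ± 0.974 CPM for D1, 0.580 ± 0.204 for D2). Npffr1, a receptor of neuropeptide FF, was at −1.43 (2.74 ± 0.664 CPM for D1, 7.40 ± 0.905 for D2). Because Oprm1 is a classical marker of striosomes in the dorsal striatum, markers of both striatal compartments were listed too. Among 11 tested striosome genes, D1 libraries were higher in 6, with Tac1, the substance P precursor, at 1.85 and Foxp2 at 0.83. They were lower in 3, with Nr4a1 at −0.92, Bach2 at −0.45 and Kcnip2 at −0.32. Tac1 and Pdyn, both on the striosome list, are also on the list of D1 neuron markers used here. Of 6 matrix genes 3 were higher and 2 lower, with Sv2b at 0.49 and Id4 at −0.80. For fentanyl abstinence against water no gene of the 12 pathway lists passed in D1 or in D2. In D1 the 7 channel genes all had a log2 difference below 0, with a median of −0.11 against −0.00073 over all genes, and Cacna1a at −0.11 (unadjusted p = 0.0173, edgeR adjusted p = 1.00). In D2, 3 of the 6 tested channel genes were above 0, with a median of −0.0029. Other lists also went 1 way without a gene passing. All 8 tested D2 neuron markers were above 0 in D1, and 0 of 12 astrocyte markers were above 0 in D2.

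Whether the receptors varied together across libraries was examined in 12 relations, 6 per cell type, after the mean of each of the 4 groups was taken away. None passed after Benjamini-Hochberg adjustment over the 12. In D1, Oprd1 and Oprk1 had a Pearson r of −0.52 and a Spearman rho of −0.56 over 24 libraries (permutation p = 0.0223 and 0.0118, adjusted 0.132 and 0.141), and r was −0.58 without the 2 libraries farthest from the median. In D2 the same pair had an r of 0.51 and a rho of 0.41 (permutation p = 0.021 and 0.0691, adjusted 0.132 and 0.276). There r was 0.40 without the 2 farthest libraries and 0.21 with a score of non-neuronal markers taken away. The sign thus differed between the cell types in relations that failed the adjustment, and the difference itself was not tested.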

How the data were processed

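Per the submitters' processing notes, TopHat2 2.0.8 was the aligner, HTSeq the counter and GRCm38 the genome build. The HTSeq version, its strand setting and the annotation release are not given in the sources used here. The deposited files give raw read counts per gene, as whole numbers, for 54838 Ensembl identifiers. Each file ends in 5 lines for reads not assigned to a gene, on average 22.9% of all, which entered no total. The share averaged 26.3% in D1 libraries (23.1 to 32.6%) and 19.5% in D2 libraries (17.7 to 22.2%), without overlap. Its part in the differences between D1 and D2 was not tested. The Smart-Seq v4 kit marks no strand, so reads of overlapping genes cannot be told apart, and amplified reads without molecular identifiers are not independent molecules.

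Tests used the quasi-likelihood method of edgeR 4.0.16 (R 4.3.3) over all genes that passed filterByExpr, with its minimum count of 10 and minimum total of 15. Libraries were scaled by TMM, and the threshold was a Benjamini-Hochberg adjusted p of 0.05. Treatment and sex were tested within each cell type, and D1 against D2 in 1 fit of all 48 libraries. Tests were two-sided and intervals are 95% t intervals. Gene models, lengths and transcripts came from GENCODE M21. Relations between receptors used log2 CPM with a prior count of 2 and 100000 permutations. Library depth ran from 20211543 to 42584762 reads. With 12 libraries per group, precision was lowest for Oprm1 and Oprd1. These genes had the fewest reads and the largest biological coefficients of variation over all libraries (21.7% and 18.6%). Each of 120 pairs of replicates differed by more than sampling noise (lowest chi-square per degree of freedom 7.36).

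The members and the 24 gene lists were chosen with earlier results of these data known. The text names up to 4 genes of each pathway list in D1 against D2, those with the smallest p at a mean CPM of at least 1. It also names the lower striosome genes, up to 2 genes of each list for fentanyl, and the 3 genes most like each receptor. The replicate numbers did not pair the libraries. Alternatives were DESeq2 1.42.0, limma 3.58.1 voom with quality weights, RLE scaling, scaling to medium spiny neuron genes, no filter, a replicate block, a non-neuronal score as covariate, all 48 libraries in 1 fit, other lengths and leaving out each library. Fits without 2 libraries that stood apart were added after the data were seen. A comparison of the proteins was not run.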

Additional observations from a re-analysis of the deposited data

Results flagged for a closer look

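Of 32 groups of 6 libraries (4 receptors in 8 groups), 3 held a library whose gap to the nearest of the others was more than 0.625 of the group's range. Chance gives about 1 in 20 groups. Oprl1 was at 31.2 CPM in D1 female fentanyl pool 1, the lowest of its group, where the next lowest had 35.3 CPM. Oprl1 was at 32.0 CPM in D2 female fentanyl pool 5, the highest of its group, where the next highest had 25.4 CPM. Without the D1 pool the log2 difference of Oprl1 in fentanyl abstinence, D1 over D2, was 0.53, and without the D2 pool 0.57. Oprm1 was at 3.40 CPM in D2 male water pool 5, the highest of its group, where the next highest had 2.28 CPM. This library was also the deepest, with 42584762 reads in genes and 147 reads of Oprm1.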

How the results depend on the processing

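The directions and calls of all 4 receptors in D1 against D2 were the same under each of 6 alternatives per treatment, and in water without each library in turn. Over those alternatives the log2 differences in water ran from 0.82 to 1.30 for Oprm1, −0.72 to −0.37 for Oprd1, 0.62 to 0.99 for Oprk1 and 0.52 to 0.86 for Oprl1. Without each library in turn they ran from 0.89 to 1.04 for Oprm1, −0.75 to −0.67 for Oprd1, 0.61 to 0.68 for Oprk1 and 0.50 to 0.55 for Oprl1, and the count of genes called from 9483 to 9849. In fentanyl abstinence, fits without the 2 libraries in which Oprl1 stood apart, chosen after seeing the data, gave −0.70 and −0.68 for Oprd1 and changed no call.

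No receptor passed for fentanyl or sex under any alternative. Oprk1 in D2 was under an unadjusted p of 0.05 in some of them. Its fentanyl difference with the non-neuronal score was −0.11 over both sexes (unadjusted p = 0.0355, edgeR adjusted p = 1.00) and −0.15 in males (unadjusted p = 0.0298, edgeR adjusted p = 0.810). For females against males in D2 water it had −0.16 with limma voom (unadjusted p = 0.0474, limma adjusted p = 0.351) and −0.19 with the neuron scaling (unadjusted p = 0.0154, edgeR adjusted p = 0.580). For the difference in response between cell types it had 0.19 with limma voom (unadjusted p = 0.0409, limma adjusted p = 0.700). Signs turned in these cases, and the cause was not tested. For fentanyl in D1 males Oprm1 had 0.074 with limma voom and 0.041 with the non-neuronal score, and Oprk1 −0.011 with the neuron scaling and −0.019 with the score. For the sex difference of the fentanyl response, Oprl1 had 0.019 with the score in D1 and Oprd1 0.024 with the neuron scaling in D2. For females against males in D1 water, Oprm1 had 0.0044 with limma voom, 0.022 with the score and 0.11 over both treatments, and Oprd1 −0.085 over both treatments. In D2 water Oprm1 had −0.0085 with the neuron scaling and Oprd1 −0.0049 over both treatments. For fentanyl in D2 Oprm1 had 0.012 with limma voom, in D2 males Oprd1 had −0.062 with the neuron scaling and Oprl1 0.00035 with no filter and 0.00038 with the replicate block, and in D2 females Oprk1 had 0.030 with the neuron scaling. Without each library in turn, fentanyl gave −0.011 to 0.10 for Oprd1 in D1, −0.091 to 0.050 for Oprm1 in D2 and −0.063 to 0.026 for Oprd1 in D2.

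Counts of genes called moved with the tool. For fentanyl, DESeq2 called 2 genes in D1, 4 in D1 males, 2 in D2 males and 6 in D2 females, limma voom 2 in D1 males and 1 in D2 females, and D1 males had 1 with no filter and D2 males 1 in the fit of 48 libraries. For the sex difference of the response DESeq2 called 3 genes in D1 and 13 in D2, where the fit of 48 libraries had 1, and for the difference between cell types DESeq2 called 6. For females against males, edgeR called 8 genes in D1 water and DESeq2 14. In D2 water edgeR called 14, DESeq2 110, limma voom 24, the neuron scaling 7 and both treatments together 75.

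Levels per kilobase in water moved with the length. Over the longest transcript they were 1.79 for Oprm1, 14.0 for Oprk1 and 11.4 for Oprl1 in D1, and 0.922, 8.84 and 7.92 in D2. Over coding length they were 3.17 for Oprm1, 6.24 for Oprd1, 57.3 for Oprk1 and 32.2 for Oprl1 in D1, and 1.63, 10.2, 36.2 and 22.3 in D2.

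With the replicate number as a block, D1 against D2 in water had 9664 genes called against 9733, and no receptor changed its call. Libraries with the same number did not deviate together (median r −0.083 in D1, −0.047 in D2, over 0.1 in 13 of 36 and 9 of 36 pairs), and 3 of 24 D1 and 2 of 24 D2 libraries correlated best with their own number. Counting limits Oprm1 most, with 47 reads in the library that held the fewest.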

Other observations

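Genes whose log2 CPM followed a receptor most closely over the 24 libraries of a cell type, group means taken away, are given as a description with Pearson's r. They share library and depth with the receptor, and were picked from 12279 genes in D1 and 12560 in D2. In D1, Oprm1 was followed by Tcf12, a helix-loop-helix transcription factor (r = 0.81), Fam133b (0.80) and Mdn1, a ribosome assembly factor (0.79). Oprd1 was followed in D1 by Tyk2, a Janus kinase (0.79), Zyx, a focal adhesion protein (0.77), and Inppl1 (0.75). Oprk1 was followed in D1 by Strip2 (0.88), Ppp1r7, a regulator of protein phosphatase type 1 (0.88), and Lpl, lipoprotein lipase (0.84), and Oprl1 by Mettl22 (0.75), Vps4a (0.72) and Tnfrsf19 (0.70). Without the 2 farthest libraries, r of Oprl1 was 0.57 with Mettl22, 0.69 with Vps4a and 0.53 with Tnfrsf19.

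In D2 the closest genes were Tomm20 (0.70), Rnmt (0.68) and Bcl7a (0.67) for Oprm1, and Wasf1, an actin regulator (0.82), Rasgef1a (0.80) and Ppp1r2 (0.79) for Oprd1. Without the 2 farthest libraries r was, in the same order, 0.72, 0.81 and 0.69 for Oprm1. For Oprd1 it was 0.70, 0.67 and 0.57. Oprk1 was followed in D2 by St8sia3, a sialyltransferase (0.80), Ppp3ca, the catalytic subunit of calcineurin (0.79), and Lrrc4c, a synaptic adhesion protein (0.79), and Oprl1 by Ccne1, a cyclin (0.80), Amn (0.79) and Coro1a, an actin-binding protein (0.77). For no receptor did the 3 genes named in D1 include one of the 3 named in D2. Picks of 3 out of so many genes would seldom meet by chance, so this is not read as a difference between the cell types.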
